A study of Mus musculus with 6 samples.

Results

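The 8 genes described here, H2-Aa, H2-Ab1, H2-Eb1, Cd74, Lyz2, Cfb, Fscn1 and Zbtb46, are known from antigen-presenting and myeloid cells and were measured in CD4+ T cell cultures. They are 8 of the 2387 genes analysed, taken by gene symbol and chosen with their values known, so their levels and the differences between genotypes are a description and carry no test. CD4+ T cells from Foxp3YFP-Cre mice, the controls, and from SRC2fl/fl/Foxp3YFP-Cre mice were compared after 36 hours of Treg polarization, with 3 libraries a genotype, each from a different mouse. Both genotypes carry the same Foxp3YFP-Cre allele, which makes Cre recombinase and a yellow fluorescent reporter in cells that express Foxp3, and the second also carries floxed alleles of Ncoa2, the gene of the coactivator SRC2. Ncoa2 is therefore deleted only as Foxp3 comes on, and cells of the same culture without Foxp3 keep it. Naive CD4+ T cells had been taken from spleen by negative selection, stimulated through CD3 and CD28 with TGFβ and with antibodies against IL-4 and IFNγ, and no sorting after polarization is mentioned for these libraries. The sample labels give neither age nor sex of the mice. The paper gives an age range for its mice in general, and states that littermates in the groups compared were matched for both.

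The values are CPM, or read counts scaled to a common total per library, averaged by the authors over each genotype. No value per library was analysed, so the depth, the spread between mice and the number of reads behind a mean are unknown, and no difference below could be set against replicate error. In the controls Ncoa2 itself had a mean of 164 CPM and Foxp3 one of 82.5 CPM, and in SRC2fl/fl/Foxp3YFP-Cre cells these were 127 CPM and 42.4 CPM. All 2387 genes are ones that passed the authors' P value threshold of 0.05 with a summed level of at least 10.02 CPM over the 6 libraries. A gene outside them was not analysed here and is counted neither as changed nor as unchanged. Of 22 genes listed for CD4 T cell identity, 3 were analysed, Cd28, Lef1 and Gata3, whereas Cd4 and Cd3e were not analysed here. All 3 had lower means in SRC2fl/fl/Foxp3YFP-Cre cells, as had 30.8% of all genes. Zbtb7b, which encodes the CD4 lineage factor ThPOK and was not on that list, had a higher mean there, with a log2 ratio of 1.01.

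MHC class II molecules present peptides from engulfed proteins to CD4+ T cells. An alpha and a beta chain pair in the endoplasmic reticulum around the invariant chain, Cd74, which blocks the groove until the complex reaches the endosome, where proteases trim the invariant chain and a peptide takes its place. Dendritic cells, B cells and macrophages make class II constitutively or on induction under the coactivator CIITA, which is recruited by factors bound to paired X and Y boxes in the promoters of the class II genes. Mouse T cells are known for making little or none of it, in contrast to activated human T cells. C57BL/6 mice, the background of this colony, lack a working alpha chain gene for the I-E molecule, so they can transcribe H2-Eb1 without showing I-E on the surface.

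The promoters of H2-Aa and H2-Eb1 are shown because they hold the letters of the paired boxes known from class II genes, and those of Fscn1 and Lyz2 as members that lie outside the class II family. The windows are from RefSeq on GRCm38.p6 and run from 250 bases before to 50 bases after an annotated start. Windows of 5 of the 8 genes were used, and 4 are printed. Capitals mark the matches found by a search of both strands for the Y box CTGATTGG, the X box stretch CTNGCAACT, the cyclic AMP response element TGACGTCA in H2-Aa and Fscn1, the TATA box TATAAA in Fscn1, and the ETS family motif CAGGAAGT, found on the other strand as ACTTCCTG, in Lyz2. These motifs were chosen after the sequences had been read. The H2-Aa window lies on the minus strand at chr17:34287774-34288073, the H2-Eb1 window on the plus strand at chr17:34305617-34305916, the Fscn1 window on the plus strand at chr5:142960105-142960404 and the Lyz2 window on the minus strand at chr10:117282223-117282522.
H2-Aa: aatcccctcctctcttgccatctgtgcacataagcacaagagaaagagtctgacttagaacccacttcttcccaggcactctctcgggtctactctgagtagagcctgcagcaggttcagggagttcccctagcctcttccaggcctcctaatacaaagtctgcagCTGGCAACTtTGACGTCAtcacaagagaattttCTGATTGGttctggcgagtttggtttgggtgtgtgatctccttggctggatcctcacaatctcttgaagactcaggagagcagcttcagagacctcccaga
H2-Eb1: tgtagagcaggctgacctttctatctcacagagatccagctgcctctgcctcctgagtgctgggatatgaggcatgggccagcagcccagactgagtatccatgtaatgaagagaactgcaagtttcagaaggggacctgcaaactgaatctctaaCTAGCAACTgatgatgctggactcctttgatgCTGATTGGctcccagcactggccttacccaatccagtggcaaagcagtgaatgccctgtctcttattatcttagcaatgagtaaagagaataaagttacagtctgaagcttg
Fscn1: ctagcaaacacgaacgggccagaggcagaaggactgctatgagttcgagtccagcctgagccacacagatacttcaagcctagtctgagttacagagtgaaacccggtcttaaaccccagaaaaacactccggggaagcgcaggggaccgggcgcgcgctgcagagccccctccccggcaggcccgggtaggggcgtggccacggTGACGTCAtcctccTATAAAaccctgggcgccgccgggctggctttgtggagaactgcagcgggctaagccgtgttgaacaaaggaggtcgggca
Lyz2: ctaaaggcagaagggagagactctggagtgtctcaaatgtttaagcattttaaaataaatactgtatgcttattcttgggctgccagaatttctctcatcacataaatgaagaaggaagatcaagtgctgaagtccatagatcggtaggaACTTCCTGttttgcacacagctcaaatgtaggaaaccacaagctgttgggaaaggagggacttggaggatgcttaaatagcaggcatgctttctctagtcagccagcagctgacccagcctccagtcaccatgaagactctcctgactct

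In H2-Aa the X box stretch began at position -84 from the start and the Y box at -51, with 24 bases between them. In H2-Eb1 they began at -94 and -62, with 23 bases between them. The Y box was found in 4.10% of all 32851 windows and the X box stretch in 0.898%, and 16 windows, 0.0487%, held both. The cyclic AMP response element lay at -74 in H2-Aa, 1 base past the X box stretch, and at -45 in Fscn1, and 1.79% of all windows held it. The ETS motif of Lyz2 lay at -100 and was in 3.33% of all windows, and the TATA box of Fscn1 at -31 was in 13.6%. Among the 2318 windows of genes analysed, 6.86% held the Y box, 0.647% the X box stretch and 0.173% both. Those with both were 4 windows, of H2-Aa, H2-Eb1, Pcgf5 and H3c3, and the last 2 are not class II genes. Since the motifs were chosen with H2-Aa and H2-Eb1 read, nothing is read from this share. The cyclic AMP response element was in 3.49% of these, the ETS motif in 3.84% and the TATA box in 7.20%. The window of Zbtb46 held none of these motifs. A match describes the letters only and is not evidence of binding.

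All 8 genes had a higher mean in SRC2fl/fl/Foxp3YFP-Cre cells, as had 69.2% of the 2387 genes analysed. The mean was at least 2-fold higher for 6 of the 8, against 5.24% of all genes analysed, and at least 16-fold higher for 4 of them, against 0.335%, which is 8 genes in all. The members were chosen on this contrast, so nothing is read from these shares. In bulk RNA, more cells that express a gene and more RNA of that gene per cell cannot be told apart. The summed level of the 8 genes was 70.1 CPM in the controls against 177 CPM in SRC2fl/fl/Foxp3YFP-Cre cells. Lyz2 alone made up 42.2% of the 107 CPM between them.

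**Figure D1:**
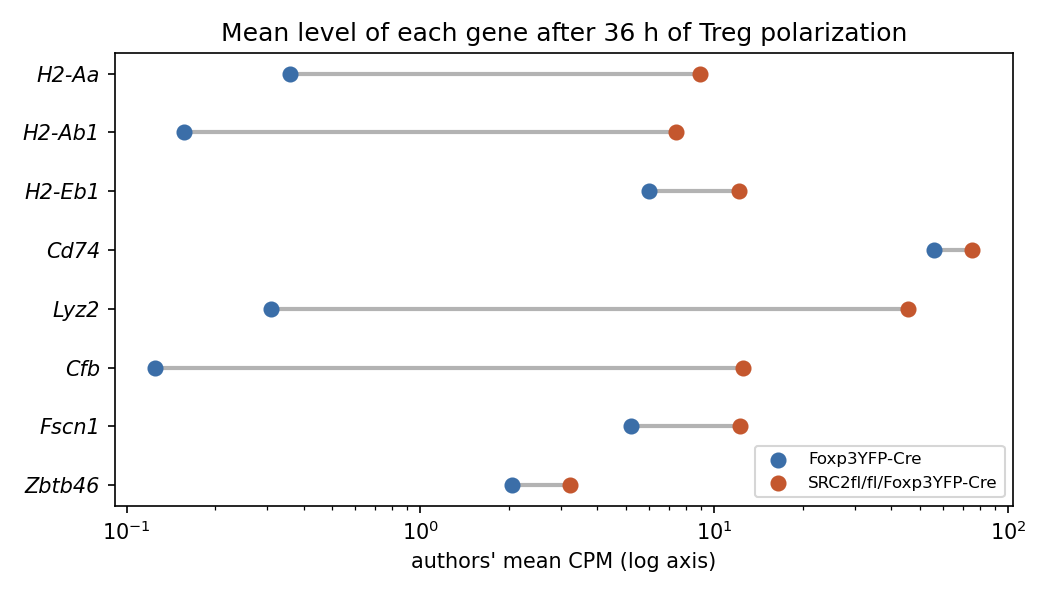
The authors' mean CPM of each of the 8 genes on a log axis, in Foxp3YFP-Cre cells (blue) and SRC2fl/fl/Foxp3YFP-Cre cells (orange), 1 point per genotype with no error available. H2-Aa, H2-Ab1, Lyz2 and Cfb lie below 0.5 CPM in Foxp3YFP-Cre cells, whereas Cd74 lies at 55.9 CPM.

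The genes of the class II chains lie side by side on chromosome 17 of GRCm38. H2-Ab1, on the plus strand from 34257689 to 34269419, encodes the beta chain of I-A. Its mean was 0.157 CPM in the controls against 7.39 CPM in SRC2fl/fl/Foxp3YFP-Cre cells, a difference of 7.23 CPM and a ratio of 47.0. H2-Aa, on the minus strand from 34282744 to 34287823, encodes the alpha chain of the same molecule. It had 0.360 CPM in the controls against 8.91 CPM in SRC2fl/fl/Foxp3YFP-Cre cells, a difference of 8.55 CPM and a ratio of 24.7. Both chains of I-A, near the bottom of the range in the control cells, were thus at several CPM in the other genotype. H2-Eb1, on the plus strand from 34305867 to 34316674, encodes the beta chain of I-E. It differed from the I-A genes in its control level, with 5.99 CPM in the controls against 12.1 CPM in SRC2fl/fl/Foxp3YFP-Cre cells, a ratio of 2.02. The difference was 6.14 CPM.

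The ratios of the 3 chains spanned 23.2-fold and their differences in CPM 1.39-fold. The second span depended on the scaling. When the SRC2fl/fl/Foxp3YFP-Cre means were divided by the median ratio of all genes analysed, a log2 shift of 0.33, the difference was 3.67 CPM for H2-Eb1, 5.73 for H2-Ab1 and 6.73 for H2-Aa, a span of 1.84-fold. Levels of different genes were compared per kilobase (kb) of annotated exon, since a longer transcript gives more reads. On this scale the difference between genotypes was 2.25 CPM per kb for H2-Aa, 2.82 for H2-Ab1 and 3.16 for H2-Eb1, a span of 1.40-fold. With the length of the longest transcript in place of all exons, H2-Ab1 had the largest of these differences with 5.97 CPM per kb, H2-Eb1 had 3.68 and H2-Aa 2.65, and the span was 2.25-fold. The order of the chains therefore depended on the length taken, and the annotation used by the authors is not given in the sources used here. H2-Eb1 overlaps the antisense gene Gm20513 over 2204 bases, and since no strand setting is stated, reads of the pair may not have been told apart.

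Cd74, the invariant chain, lies on the plus strand of chromosome 18 from 60803848 to 60812652. It was the most abundant of the 8 genes in both genotypes on the per-kilobase scale, with 33.3 CPM per kb in Foxp3YFP-Cre cells and 44.9 CPM per kb in SRC2fl/fl/Foxp3YFP-Cre cells. In CPM it had 55.9 and 75.3, which is the smallest ratio of the 8 genes, 1.35, and their second largest difference, 19.4 CPM. Per kilobase of all exons the difference was 11.6 CPM per kb, or 4.22 times the average of the 3 class II chains. With the longest transcript as length it was 13.8 CPM per kb, against 2.65 to 5.97 for the chains. Per kilobase of all exons, the level of Cd74 was 30.9 times the average level of the chains in Foxp3YFP-Cre cells and 11.7 times in SRC2fl/fl/Foxp3YFP-Cre cells. The gene for the chaperone was therefore well represented in the control cells, in which both I-A chains were close to the bottom of the range. After division by the median ratio, which by construction takes the share of genes with a higher mean from 69.2% to 49.98%, the difference of Cd74 was 4.08 CPM, the sixth largest of the 8. Per kilobase of all exons it was then 2.43 CPM per kb, against 1.77 to 2.23 for the class II chains. H2-Ab1 has 2568 bases of annotated exon but 1212 in its longest transcript, so this order depended on the length taken. Relative to that median, the log2 ratio of Cd74 went from 0.43 to 0.10. The median was taken only over genes below the P value threshold. These held 13.9% of all CPM in Foxp3YFP-Cre cells and 14.8% in SRC2fl/fl/Foxp3YFP-Cre cells. Whether the median reflects the scaling of the libraries was not tested.

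**Figure D2:**
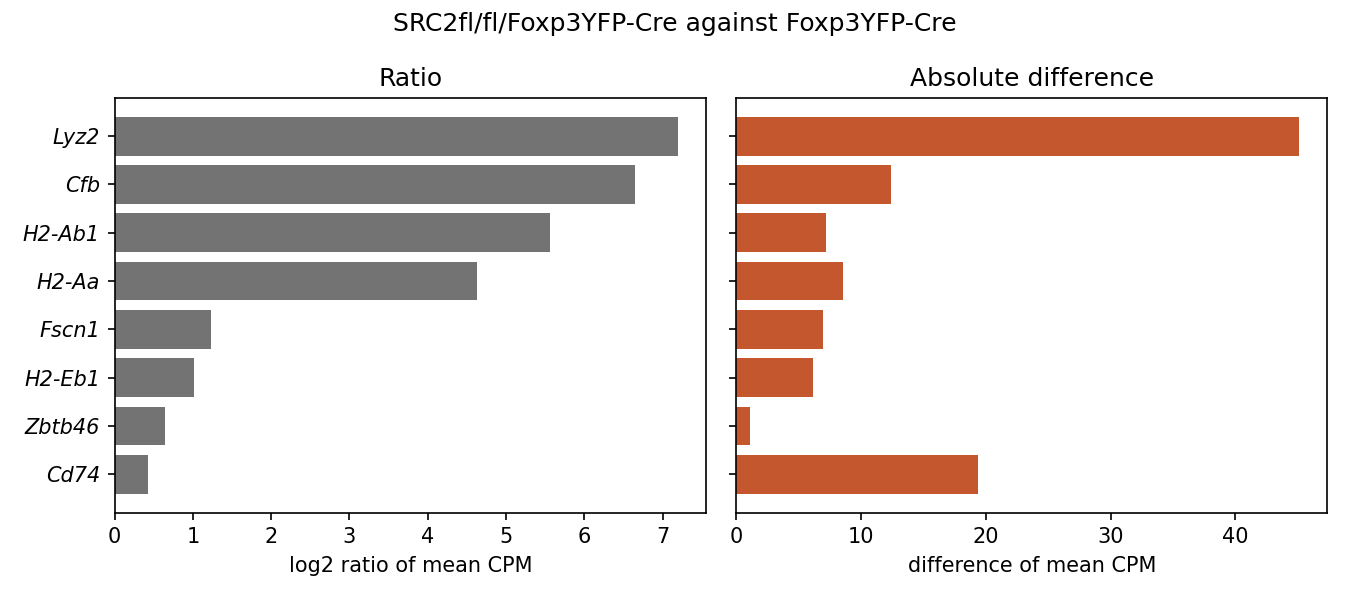
Log2 ratio (left) and difference in CPM (right) of the authors' means, SRC2fl/fl/Foxp3YFP-Cre against Foxp3YFP-Cre, for each of the 8 genes in the order of the ratio. Cd74 has the smallest log2 ratio, 0.43, and the second largest difference, 19.4 CPM (sixth largest, 4.08 CPM, after division by the median ratio), whereas H2-Ab1, H2-Aa, Fscn1 and H2-Eb1 differ by 6.14 to 8.55 CPM at log2 ratios from 1.02 to 5.55.

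Lyz2 encodes the lysozyme that macrophages and neutrophils secrete, an enzyme that cleaves bacterial cell walls, and lies on the minus strand of chromosome 10 from 117277331 to 117282321. Its mean was 0.310 CPM in the controls against 45.4 CPM in SRC2fl/fl/Foxp3YFP-Cre cells. This ratio of 146 was the largest of all 2387 genes, and the difference of 45.1 CPM held rank 79 among the 1652 genes with a higher mean. Per kilobase of all exons Lyz2 had 0.236 CPM per kb in the controls and Zbtb46 had 0.241. Zbtb46 has 8508 bases of annotated exon but 5309 in its longest transcript, so this likeness depended on the length taken. In the other genotype Lyz2 had 34.5 CPM per kb, where among the 8 genes Cd74 alone was higher. Its paralog Lyz1, whose near-identical sequence may share reads, was not analysed here, so the value of Lyz2 is uncertain to that extent.

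Cfb encodes complement factor B, the protease of the alternative pathway that cleaves C3, and lies on the minus strand of chromosome 17 from 34856374 to 34862518. It had 0.125 CPM in Foxp3YFP-Cre cells, the lowest mean of any gene analysed in that genotype, but 12.5 CPM in SRC2fl/fl/Foxp3YFP-Cre cells. The ratio of 100 was second to that of Lyz2, and the difference of 12.4 CPM held rank 536 among the genes with a higher mean. Of 18 complement genes, the other one analysed was C3 itself, the substrate on which factor B acts, with 1.22 CPM in the controls against 6.14 CPM in SRC2fl/fl/Foxp3YFP-Cre cells, a log2 ratio of 2.33. Like Cfb, C3 met the required sum of 10 CPM over 6 libraries only through its level in SRC2fl/fl/Foxp3YFP-Cre cells. Both genes therefore had to be higher there, and nothing is read from their shared direction. Cfb overlaps the annotated gene Gm20547 on the same strand over 6107 bases, nearly its whole length, so reads may have been divided between them.

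Fscn1 encodes fascin, which bundles actin in the processes of mature dendritic cells, and lies on the plus strand of chromosome 5 from 142960343 to 142973185. Its mean was 5.21 CPM in the controls against 12.2 CPM in SRC2fl/fl/Foxp3YFP-Cre cells, a ratio of 2.34 and a difference of 6.98 CPM. Per kilobase it had 1.73 and 4.05 CPM per kb. After division by the median ratio the difference of Fscn1 was 4.49 CPM. Of 8 genes for actin-bundling proteins, 3 were analysed, and the other members were Espn, or espin, with a log2 ratio of 0.40 and Actn1, an alpha-actinin, with -0.28.

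Zbtb46 encodes a zinc finger transcription factor of conventional dendritic cells and lies on the minus strand of chromosome 2 from 181387762 to 181459426. It had the lowest mean of the 8 genes in SRC2fl/fl/Foxp3YFP-Cre cells, 3.22 CPM, against 2.05 CPM in Foxp3YFP-Cre cells. Of the 2387 genes, 2362 differed by more than the 1.17 CPM of Zbtb46 in either direction, and after division by the median ratio this difference was 0.513 CPM. Its summed level over the 6 libraries, 15.8 CPM, was the closest of the 8 to the smallest sum among the genes analysed, 10.02 CPM. Of 35 BTB zinc finger genes including Zbtb46, 12 were analysed, 8 higher and 4 lower, against 69.2% higher and 30.8% lower among all genes. The largest log2 ratio among them was 1.01 for Zbtb7b, which encodes the CD4 lineage factor ThPOK, with 41.3 CPM in the controls against 83.2 CPM in SRC2fl/fl/Foxp3YFP-Cre cells.

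The rank of a member by ratio and its rank by difference were far apart. Lyz2, Cfb, H2-Ab1 and H2-Aa held ranks 1 to 4 of the 2387 genes by ratio, and ranks 79, 536, 971 and 835 by difference in CPM, counted among the 1652 genes with a higher mean. Fscn1 and H2-Eb1 held ranks 66 and 118 by ratio and 998 and 1082 by difference. Cd74 went the other way, with rank 767 by ratio and 289 by difference.

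The ratios at the top were bounded from below by the choice of genes. With a sum of at least 10 CPM over 6 libraries required, a gene with 0.5 CPM in Foxp3YFP-Cre cells had to have a ratio of at least 5.67 to be among the genes analysed. In Foxp3YFP-Cre cells 11 genes had a mean below 0.5 CPM, and for all 11 the SRC2fl/fl/Foxp3YFP-Cre mean was the higher one, the smallest ratio being 7.35. H2-Aa, H2-Ab1, Lyz2 and Cfb were among them. These 4 members met the sum only through their level in SRC2fl/fl/Foxp3YFP-Cre cells, so that they had to be higher there, whereas the other 4 would have met it on their Foxp3YFP-Cre level in both genotypes. In the opposite direction, no gene analysed had a mean below 0.5 CPM in SRC2fl/fl/Foxp3YFP-Cre cells, where the lowest was 0.677 CPM.

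**Figure D3:**
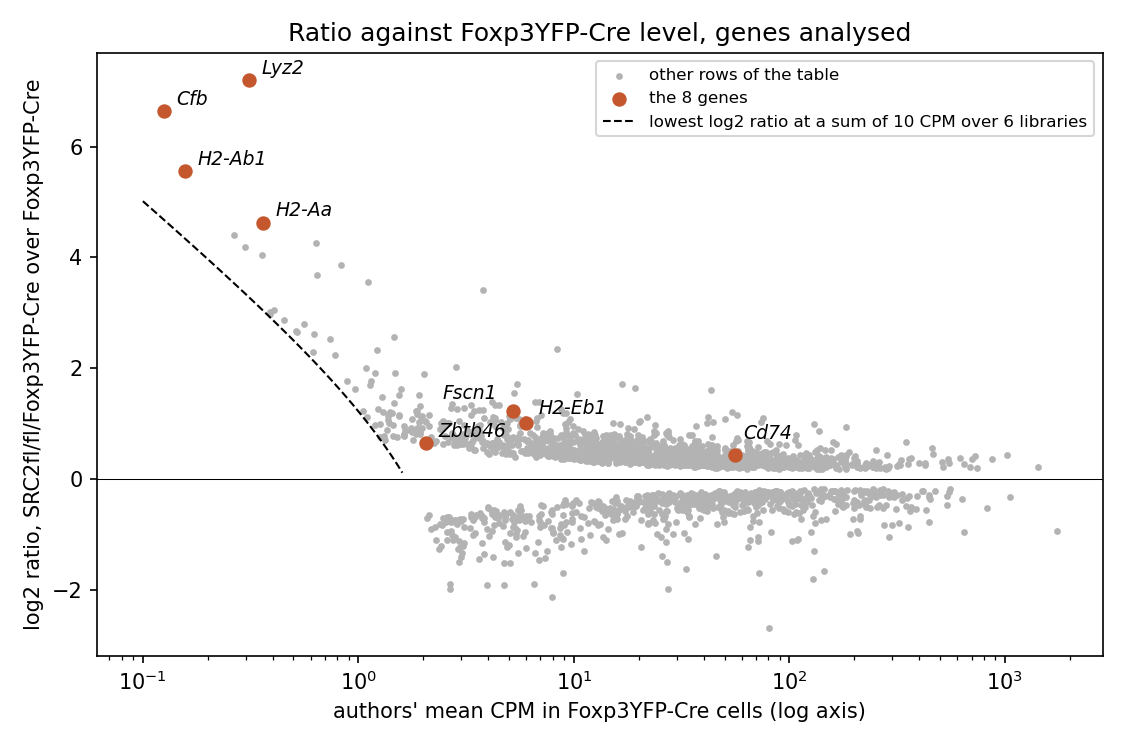
Log2 ratio of the authors' means against the Foxp3YFP-Cre mean in CPM (log axis) for the 2387 genes analysed, with the 8 genes in orange. The dashed line is the lowest log2 ratio that a sum of 10 CPM over 6 libraries allows, and Lyz2, Cfb, H2-Ab1 and H2-Aa lie above it at Foxp3YFP-Cre means of 0.125 to 0.360 CPM.

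H2-Ab1, H2-Aa, H2-Eb1 and Cfb are all genes of the MHC region, 3 of them chosen as its class II genes, so their shared position is a description. They lie within 605 kb of the MHC region on chromosome 17, from 34257689 to 34862518, and the 3 class II genes within 59.0 kb. GENCODE M21 annotates 29 protein-coding genes that touch this interval, of which 8 were analysed. The other 4 were Rnf5, a ubiquitin ligase, with a log2 ratio of 0.51, Agpat1, an enzyme of phospholipid synthesis, with 0.33, Fkbpl with 0.68 and Atf6b, an endoplasmic reticulum stress factor, with 0.26. All 4 had the higher mean in SRC2fl/fl/Foxp3YFP-Cre cells. The members were chosen for this contrast, so their larger log2 ratios are no result about the region. In the 1 Mb on either side, 16 further genes were analysed, 9 higher and 7 lower, against 69.2% higher and 30.8% lower among all genes. The largest log2 ratio there was 2.35 for Tnf, the inflammatory cytokine, with 8.39 CPM in the controls against 42.8 CPM in SRC2fl/fl/Foxp3YFP-Cre cells.

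**Figure D4:**
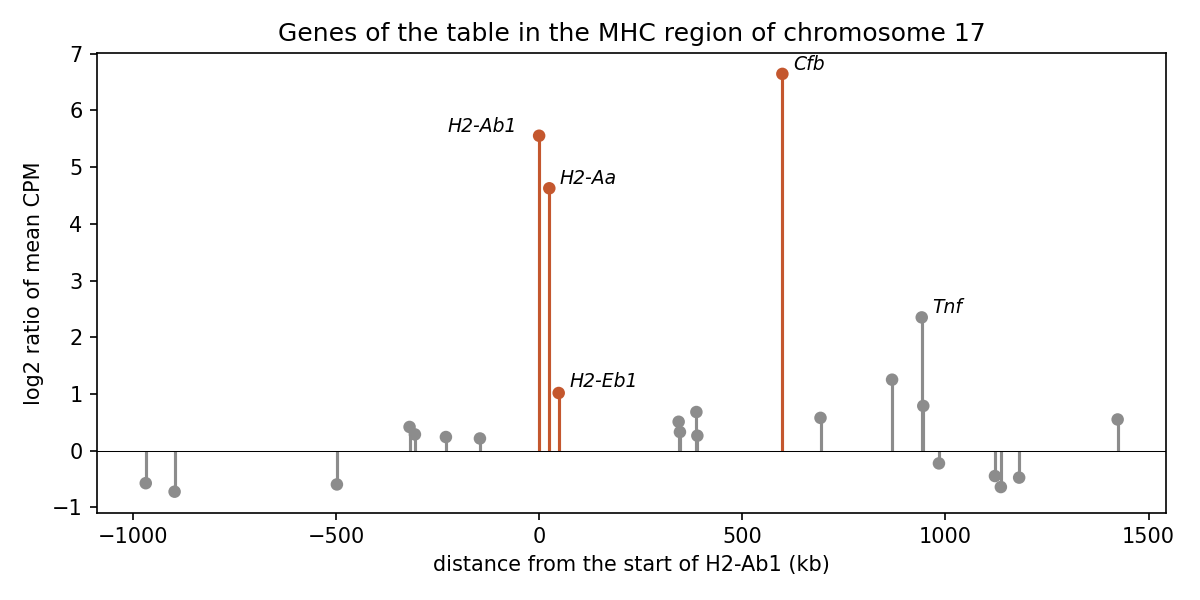
Log2 ratio of the authors' means for each gene analysed from 1 Mb before to 1 Mb after the interval from H2-Ab1 to Cfb, by distance in kb from the start of H2-Ab1. The members are in orange, other genes in gray, and the 4 other genes between H2-Eb1 and Cfb have log2 ratios of 0.26 to 0.68.

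Few other genes of the class II pathway were among the genes analysed. Of 16 genes for class II molecules and their loading, 5 were analysed, the 4 members and Lgmn, the endosomal protease legumain. Lgmn had a lower mean in SRC2fl/fl/Foxp3YFP-Cre cells, 7.84 CPM against 10.2 CPM in Foxp3YFP-Cre cells, a log2 ratio of -0.38. Ciita, H2-DMa and Ctss were not analysed here. Of 10 genes for class II transcription, 4 were analysed. Rfx5, which binds the X box, had 46.7 CPM in the controls against 57.6 CPM in SRC2fl/fl/Foxp3YFP-Cre cells, a log2 ratio of 0.31. Nfya, a subunit of the factor that binds the Y box, had a log2 ratio of 0.50 and Creb1, which binds the cyclic AMP response element, 0.53. Crebbp, an acetyltransferase recruited by CIITA, had one of -0.39. These factors had means of at least 46.7 CPM in both genotypes, and their median log2 ratio of 0.40 was close to that of all genes analysed, 0.33.

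MHC class I presentation, which all nucleated cells carry out, was represented by 5 of 23 genes, 3 higher and 2 lower, with a median log2 ratio of 0.32, against 69.2% higher and a median of 0.33 among all genes. H2-T23, which encodes the nonclassical molecule Qa-1, had 0.33, whereas H2-Q4 and H2-Q7 had -0.45 and -0.47. H2-Q5, which was analysed but is not on that list, was also lower, with -0.64. The H2-Q genes are near-identical to each other and may share reads. Of 31 interferon response genes, 7 were analysed, 5 higher and 2 lower, where 69.2% of all genes were higher, with a median log2 ratio of 0.35. Irgm2, an interferon-induced GTPase, had the largest log2 ratio of them with 0.92, and Gbp5, another, the lowest with -0.67.

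Other markers of the cell types that these 8 genes are known from were few among the genes analysed. Of 28 markers of macrophages, monocytes and neutrophils, Lyz2 alone was analysed, and Csf1r, Cd68 and S100a8 were not analysed here. Of 22 B cell markers, the 4 analysed were the class II chains and Cd74, with a summed level of 62.4 CPM in the controls against 104 CPM in SRC2fl/fl/Foxp3YFP-Cre cells, whereas the other markers of that list, Cd79a among them, were not analysed here. Of 19 dendritic cell markers, 8 were analysed, 7 higher and 1 lower, where 69.2% of all genes were higher. Besides Fscn1 and Zbtb46, Ccl22, a chemokine that attracts CCR4-bearing T cells and is made by dendritic cells and macrophages, had 3.78 CPM in the controls against 40.5 CPM in SRC2fl/fl/Foxp3YFP-Cre cells, a log2 ratio of 3.42. Irf8, a factor of dendritic cells that activated T cells also express, had 458 CPM in the controls against 676 CPM in SRC2fl/fl/Foxp3YFP-Cre cells. Cd80, a costimulatory ligand, had a log2 ratio of 0.59, Cd83 one of 0.42 and Bst2, or tetherin, one of 0.34. The lower gene was Ccr7, which naive T cells also express, with a log2 ratio of -0.94. The summed level of the 8 dendritic cell markers, most of it Ccr7 and Irf8, was 2363 CPM in the controls against 1845 CPM in SRC2fl/fl/Foxp3YFP-Cre cells. Of 15 mast cell and basophil markers, 3 were analysed, Mcpt1, Mcpt2 and Il1rl1, with a summed level of 1.85 CPM in the controls against 22.1 CPM in SRC2fl/fl/Foxp3YFP-Cre cells. These 3 had control means of 0.359, 1.11 and 0.388 CPM. They met the required sum of 10 CPM over 6 libraries only through their SRC2fl/fl/Foxp3YFP-Cre level, so they had to be higher there. None of 12 markers of other T and NK lineages was analysed. The part of other cell types in the levels of the 8 genes was not tested.

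**Figure D5:**
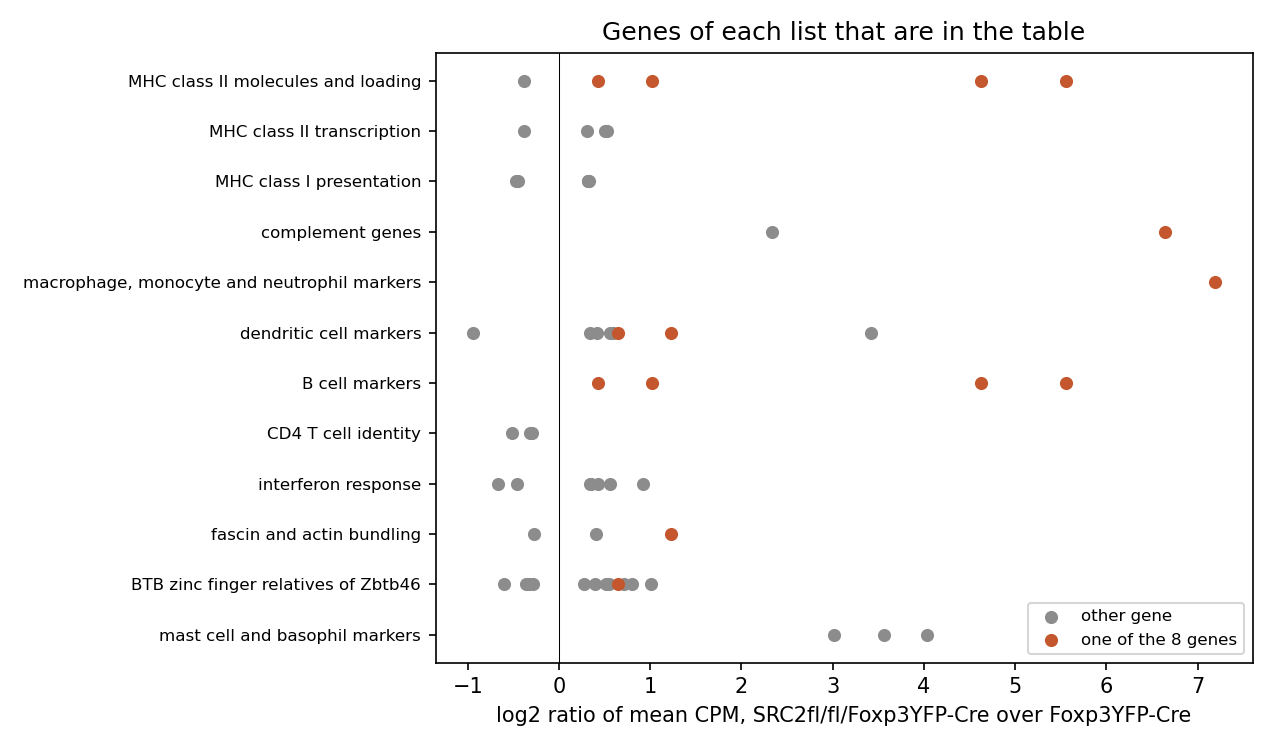
Log2 ratio of the authors' means, SRC2fl/fl/Foxp3YFP-Cre over Foxp3YFP-Cre, for the members of each gene list that were among the 2387 genes analysed, 1 point per gene. The 8 genes are in orange and other genes in gray, the class II chains and Cd74 stand in more than 1 list, and the class II transcription, class I and interferon genes lie between -0.67 and 0.92.

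The genes nearest in log2 ratio to Lyz2, Cfb, H2-Ab1 and H2-Aa, among other genes with at least 5 CPM in the higher genotype, were Cd63-ps, Csf2rb, Cd63, Mcpt1 and Csf2rb2, with log2 ratios from 3.86 to 4.41. Since the 4 members held the highest ratios and members were left out as neighbors, the same 5 genes followed for each of them by construction, and nothing is read from it. Csf2rb, the shared beta chain of the receptors for GM-CSF, IL-3 and IL-5, had 0.638 CPM in the controls against 12.2 CPM in SRC2fl/fl/Foxp3YFP-Cre cells. All 5 genes had control means from 0.264 to 0.830 CPM, so they too met the required sum only through their SRC2fl/fl/Foxp3YFP-Cre level. Cd63 and the pseudogene Cd63-ps, and likewise the paralogs Csf2rb and Csf2rb2, are near-identical and may share reads, so these pairs do not count as separate genes.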

How the data were processed

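RNA-seq was performed on 3 Foxp3YFP-Cre and 3 SRC2fl/fl/Foxp3YFP-Cre cultures. Alignment was to GRCm38 and quantification by the E/M method of Partek Flow, after which the authors converted each library to CPM and added 0.001. Neither the aligner nor the annotation is named in the sources. The deposited file holds, for each genotype, 1 CPM value averaged by the authors. Its totals were 3 times both means added together (relative tolerance 1e-06), and hence add up CPM rather than reads. The deposited P value column of the authors' own comparison was read only to see that every value lay below 0.05, and their adjusted P values, ratios and fold changes were not used.

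Differences and log2 ratios of the means were computed with no offset, and symbols were matched to GENCODE M21 (GRCm38), which named 2342 of the 2387 genes once, for position and exon length. The design asked for a count test where values per library were held, and none was run because the file holds means. Alternatives were offsets of 1 and 5 CPM, removal of the 0.001, scaling by the median ratio, the longest transcript as length and a minimum of 5 CPM. Computations were tested on simulated data. Members and gene lists were chosen with earlier results of these data known. All 8 members are named, with the analysed genes of the class II, complement and antigen-presenting cell lists, up to 4 genes by log2 ratio of other lists, those between H2-Ab1 and Cfb, and the 5 nearest in log2 ratio. Genes of the flanking 1 Mb were named after their values were seen. Python 3.11.15, numpy 2.4.6, pandas 2.3.3 and matplotlib 3.10.9 were used.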

Additional observations from a re-analysis of the deposited data

How the results depend on the processing

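All 8 genes kept a higher mean in SRC2fl/fl/Foxp3YFP-Cre cells after division by the median ratio. This was fixed in advance, since their smallest log2 ratio, 0.43 for Cd74, lies above the median of 0.33, and nothing is read from it. Offsets of 1 and 5 CPM and the removal of 0.001 cannot change a direction. The size of the largest ratios depended on the offset: with 1 CPM added, the log2 ratio was 5.15 for Lyz2, 3.59 for Cfb, 2.86 for H2-Ab1 and 2.86 for H2-Aa, and with 5 CPM added 3.25, 1.77, 1.26 and 1.38, as against 7.19, 6.65, 5.55 and 4.63 with none. Cd74 kept 0.42 and 0.40. Division by the median ratio took the summed difference of the 8 genes from 107 to 70.9 CPM. The summed difference per kb was 60.9 CPM per kb with all exons and 67.7 with the longest transcript. The share of genes with a higher mean was 70.3% with at least 5 CPM in the higher genotype, 62.5% among the 200 genes past 2-fold, 49.98% after division by the median ratio, which fixes it by construction, and, chosen after seeing the data, 69.6% among the 2286 genes that in both genotypes reached the per-library average of the minimum sum. No paired analysis was possible because 1 average per genotype carries no replicate number, and for the same reason leaving out each library, DESeq2 and a filter on counts were not run. The depth of the libraries is unknown, so how many reads lie behind a mean of 0.125 CPM cannot be given.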
